A study of Mus musculus with 28 samples.

Results

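Antioxidant enzymes keep superoxide and hydrogen peroxide low in the cell. The RNA of 10 such genes was followed here through a mouse model of spontaneous breast cancer metastasis: the superoxide dismutases Sod1, Sod2 and Sod3, the peroxide-removing enzymes Cat, Gpx1 and Gpx3, the stress-induced enzymes Nqo1 and Hmox1, and Gclc and Txnrd1 of the glutathione and thioredoxin systems. The members were given as a list of names, all 10 were found on the array among 18193 genes, and they were read by 22 of 34945 probe sets that the platform annotation assigns to 1 gene symbol.

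The arrays held 11 primary mammary tumors (PT) and 9 lung metastases (LungMets), with 3 samples of normal mammary gland (NMG) and 3 of normal lung (NL), all from female Balb/C nude mice, which are athymic and have no mature T cells. JygMC(A), a murine mammary carcinoma line with a GFP/luciferase reporter, had been placed at 50000 cells in the 4th mammary gland of mice of 8 weeks. The labels date PT at day 30 and LungMets at day 50 after injection and give a subcutaneous route, while the methods give the fat pad and a removal of PT at 20 to 30 days. NMG and NL came from uninjected mice of 6 to 8 weeks, and the line itself was measured as a monolayer and as 3D spheres on 1 array each. All groups share the nude background, and PT and LungMets grew from the same line. The labels call the samples biological replicates and do not name the animal of each. The methods describe 1 or 2 fragments of tumor and metastasis from 8 mice, so some samples may share a mouse, n is a number of samples, and a p-value reflects their spread, part of which may be technical.

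Superoxide dismutases convert superoxide into hydrogen peroxide in the cytosol (SOD1), the mitochondrial matrix (SOD2) and the extracellular space (SOD3), and catalase and the glutathione peroxidases then reduce the peroxide to water. Many genes of this defence carry an antioxidant response element, a DNA sequence to which the transcription factor NRF2 (gene Nfe2l2) binds together with a small MAF protein after KEAP1 releases it. Normal mammary gland of the mouse is rich in fat cells, and normal lung in endothelium and epithelium exposed to air, so tissue makeup and RNA per cell both enter a whole-tissue value.

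The sequences at the gene starts are shown because the members differ in whether these letters hold the core of that element, and because Txnrd1, whose probe sets moved in opposite directions, has several starts. RefSeq windows of 250 bases before to 50 after a start (build GRCm38.p6) were at hand for 7 of the 10 members, with 9 windows in all; those of Sod3, Hmox1 and Gclc were not used here. The core TGACNNNGC was searched on both strands, and capitals mark a match, here always on the opposite strand and so printed as its reverse complement.
Sod1, chr16:90220512-90220811, plus strand: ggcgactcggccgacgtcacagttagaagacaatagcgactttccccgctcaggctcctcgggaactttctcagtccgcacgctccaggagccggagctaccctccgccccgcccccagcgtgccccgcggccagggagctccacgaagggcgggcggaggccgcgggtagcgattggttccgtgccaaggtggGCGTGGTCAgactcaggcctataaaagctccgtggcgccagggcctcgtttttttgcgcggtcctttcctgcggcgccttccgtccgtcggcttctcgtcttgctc
Nqo1, chr8:107403156-107403455, minus strand: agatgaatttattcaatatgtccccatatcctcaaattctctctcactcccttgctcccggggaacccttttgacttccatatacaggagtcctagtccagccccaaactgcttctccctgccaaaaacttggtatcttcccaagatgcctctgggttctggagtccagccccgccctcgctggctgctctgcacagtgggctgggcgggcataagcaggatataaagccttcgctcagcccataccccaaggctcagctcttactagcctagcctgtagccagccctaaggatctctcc
Txnrd1, start 1, chr10:82833701-82834000, plus strand: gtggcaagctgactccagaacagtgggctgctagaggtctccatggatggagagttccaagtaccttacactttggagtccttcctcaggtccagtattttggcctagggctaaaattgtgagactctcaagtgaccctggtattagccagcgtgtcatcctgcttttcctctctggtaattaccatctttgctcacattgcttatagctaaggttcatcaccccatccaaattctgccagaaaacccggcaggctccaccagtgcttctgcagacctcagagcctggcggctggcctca
Txnrd1, start 2, chr10:82858956-82859255, plus strand: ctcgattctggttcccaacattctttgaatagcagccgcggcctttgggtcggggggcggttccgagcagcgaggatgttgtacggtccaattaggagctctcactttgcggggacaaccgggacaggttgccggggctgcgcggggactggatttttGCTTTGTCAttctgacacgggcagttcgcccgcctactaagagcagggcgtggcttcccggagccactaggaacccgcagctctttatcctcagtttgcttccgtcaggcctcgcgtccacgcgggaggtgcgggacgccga
Txnrd1, start 3, chr10:82860091-82860390, plus strand: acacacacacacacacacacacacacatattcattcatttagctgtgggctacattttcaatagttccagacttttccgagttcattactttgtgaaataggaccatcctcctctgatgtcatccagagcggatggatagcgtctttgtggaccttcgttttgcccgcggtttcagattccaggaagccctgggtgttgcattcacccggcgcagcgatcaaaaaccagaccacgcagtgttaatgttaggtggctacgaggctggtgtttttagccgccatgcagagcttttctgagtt

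The core was found in 2 of the 9 windows of the members, that of Sod1 at bases -56 to -48 from the start (TGACCACGC) and that of the second Txnrd1 start at bases -92 to -84 (TGACAAAGC). Over all 32851 windows of the table, 4071 or 12.4% held it. A match is a run of letters and not a shown binding site, and these windows do not cover elements farther from a start.

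All values below are log2 units of RMA-normalised signal, in which 1 unit is a doubling, and levels of different probe sets are not compared with each other. Array medians lay from 5.00 to 5.18. A pair of arrays stood apart from their labels, by correlation over the 18193 genes with 1 probe set each. PT replicate 5 correlated with the mean of the other PT at 0.968 and with LungMets at 0.989. LungMets replicate 9 correlated at 0.963 with the other LungMets and at 0.983 with PT. The mean of 10 lung epithelium genes, such as the club cell secretory protein Scgb1a1 and the surfactant protein Sftpc, was 10.49 in PT replicate 5 against a PT median of 5.27, and 6.67 in LungMets replicate 9 against a LungMets median of 10.95. Both arrays were kept as labelled, and results are also given without them. Normal tissues carried their own markers. The lung list lay at 12.21 to 12.31 in NL, and 9 adipocyte genes at 11.28 to 12.00 in NMG. That lung list was also raised in NMG replicate 1 (7.66, against 5.90 and 5.44 in the other NMG) and in PT replicate 7 (7.31). In NMG 9 luminal epithelial genes lay at 8.56 to 9.58, a range that overlapped PT (6.17 to 9.26) and LungMets (7.43 to 9.02). The dates in the labels formed 4 batches. The first had 4 PT, 4 LungMets and both culture arrays, the second 7 PT and 5 LungMets, and NL and NMG each had a date of their own, so that date and normal tissue cannot be told apart.

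Of the 10 genes, PT had lower RNA than NMG for 7 and higher RNA for 1, Nqo1, by limma at adjusted p under 0.05 (PT against NMG). These counts use the brightest probe set of a gene: with the mean of its probe sets they were 5 lower and 3 higher, as the Sod2 call was lost and Sod3 and Txnrd1 were called higher. Over all genes 47.7% were called, 26.7% higher and 21.0% lower. LungMets stood above PT for 6 members and below for 1, again Nqo1, where 15.2% of all genes were called, 9.03% higher and 6.13% lower. Against NL, LungMets had 1 member higher and 4 lower, with 46.2% of all genes called, 23.8% higher and 22.4% lower, a count close to that share. Against NMG, LungMets had 2 higher and 4 lower, with 41.0% of genes called, 23.1% higher and 17.9% lower. The median difference of the 10 members was -0.74, 0.28, -0.56 and -0.49 in these comparisons in turn, and that of all genes 0.09, -0.02, 0.05 and 0.10. The comparisons share the PT, LungMets or NMG samples and are not independent of each other. Without PT replicate 5 and LungMets replicate 9 the counts were 9, 7, 5 and 6, and the added call was Sod3 in PT against NMG. The shares of all genes without this pair are not given here.

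**Figure D1:**
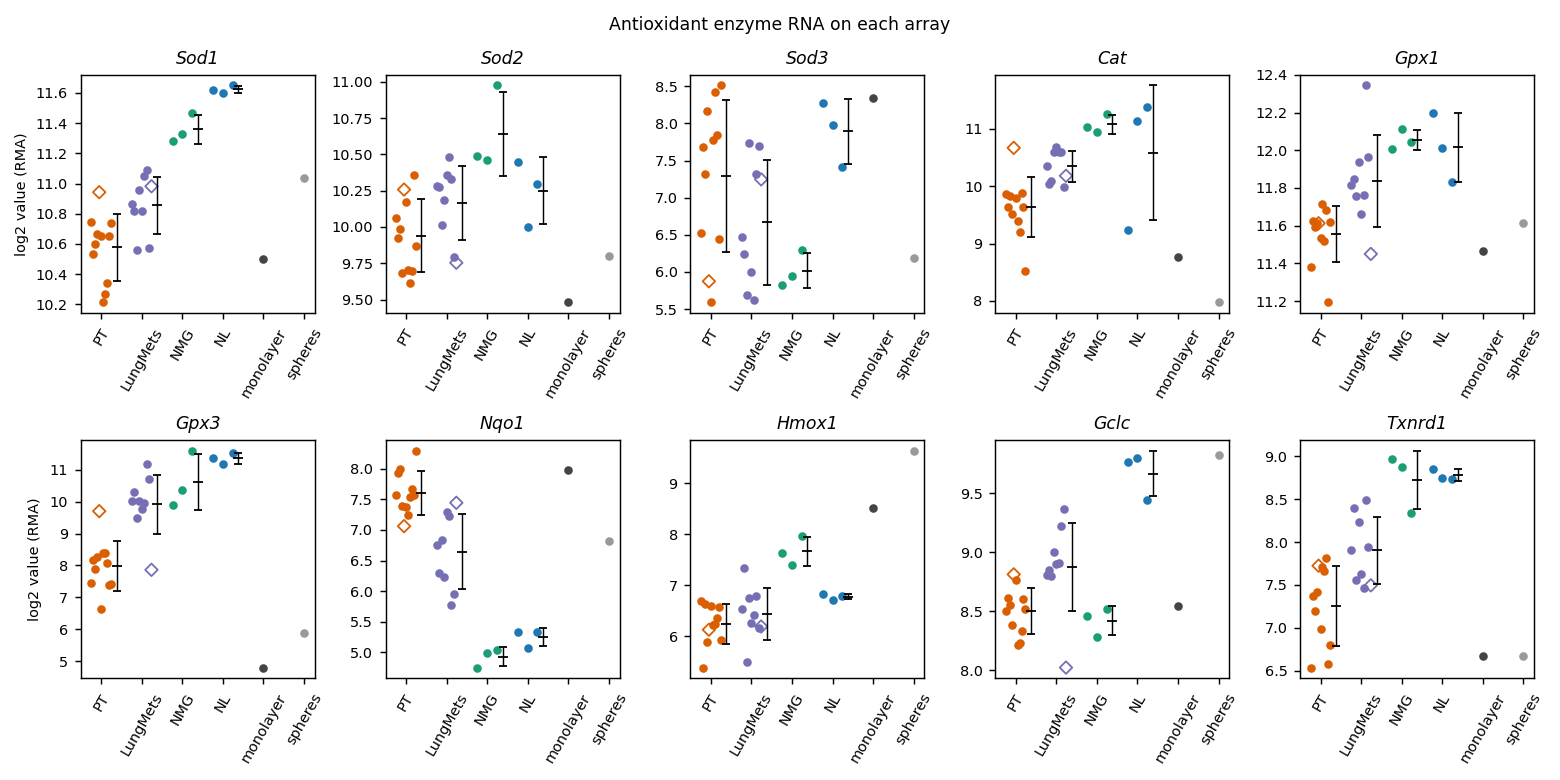
Log2 RMA value (y axis) of each antioxidant enzyme on each of the 28 arrays, by group (x axis), with the group mean and SD as black bars beside the points; open diamonds are PT replicate 5 and LungMets replicate 9. Nqo1 was above all normal samples in every tumor, while PT was the lowest tissue group by mean for 7 of the 10 genes, a count with no share over all genes beside it.

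**Figure D2:**
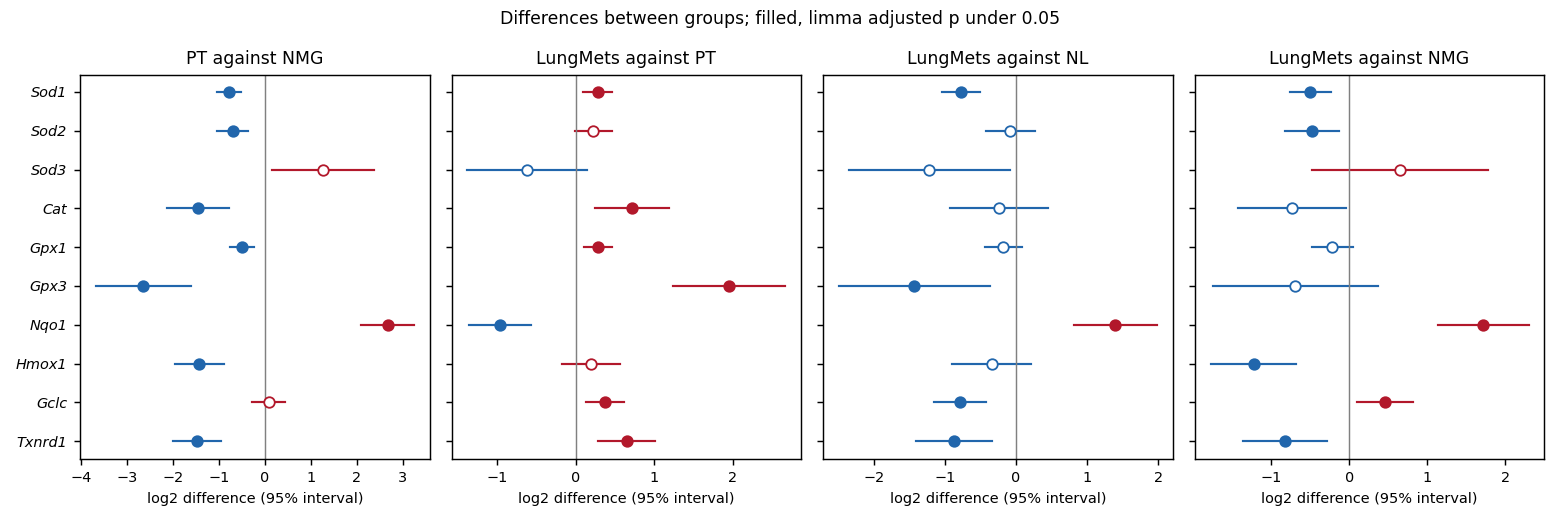
Log2 difference between groups (x axis) with its 95% interval for each gene (y axis) in the 4 comparisons; red is higher and blue lower in the group named first, filled points passed limma's adjusted p of 0.05. In PT against NMG the points run from -2.65 for Gpx3 to 2.67 for Nqo1.

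Sod1, the cytosolic copper and zinc dismutase, was lowest in PT, with values of 10.21 to 10.94 and a median of 10.65. LungMets gave 10.56 to 11.09 with a median of 10.86, NMG 11.28, 11.33 and 11.46, and NL 11.62, 11.60 and 11.65. By 1459976_s_at LungMets reached 11.05, above the lowest NL of 10.71, with 7 of 9 below every NL. By 1435304_at and 1447761_x_at tumor and normal ranges overlapped. By the brightest probe set, as by 1440222_at, no tumor of either site reached the lowest normal sample. PT was 1.72-fold lower than NMG (log2 difference -0.78, SE 0.13, adjusted p = 1.62e-05, below in 11 of 11), and LungMets were 1.70-fold lower than NL (-0.77, SE 0.13, adjusted p = 2.90e-05, below in 9 of 9) and lower than NMG (-0.50, adjusted p = 0.00309). By 1459976_s_at the step from PT to LungMets was 0.41 (limma adjusted p = 0.00876), while 1435304_at, 1440222_at and 1447761_x_at were not called. By the brightest probe set this step was small, 0.28 (SE 0.087, adjusted p = 0.0311), with 4 of 9 LungMets above every PT. It was 0.16 within the first date batch and 0.36 within the second, and the call was lost (adjusted p from 0.0520 to 0.0725) when LungMets replicate 4, 6 or 7 or PT replicate 7, 8 or 9 was left out, with each array centred on its median (0.0614) or with only both tumor groups in the fit (0.0550).

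Sod2, the manganese enzyme of mitochondria, gave 9.61 to 10.36 with a median of 9.92 in PT and 9.75 to 10.48 with a median of 10.27 in LungMets. NMG lay at 10.49, 10.46 and 10.98, and NL at 10.45, 9.996 and 10.30, inside the range of the tumors. PT was lower than NMG in 11 of 11 samples, by 1.63-fold (-0.70, SE 0.16, adjusted p = 0.000944), a call lost with the mean of the 4 probe sets (-0.29, adjusted p = 0.142), and LungMets were lower than NMG by 0.48 (adjusted p = 0.0241), a call also lost with that mean (adjusted p = 0.203) and without NMG replicate 3 (adjusted p = 0.224). LungMets did not pass the test against PT (0.22, 95% interval -0.01 to 0.46, adjusted p = 0.196, or 0.30 and 0.0165 with array weights) or against NL (-0.08, interval -0.43 to 0.26, adjusted p = 0.707).

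Sod3, the extracellular dismutase, spread widely among the tumors. PT ran from 5.59 to 8.51 with a median of 7.68, LungMets from 5.63 to 7.73 with a median of 6.47, NMG was at 5.83, 5.94 and 6.29, and NL at 8.28, 7.98 and 7.41. In 9 of 11 PT the value exceeded every NMG, and in 1 it was below them all. The difference of 1.27 (SE 0.53) lay at the threshold, with adjusted p = 0.0534. Several alternatives called it higher in PT: the mean of both probe sets (adjusted p = 0.0143) and a filter on dim genes (0.0454). Centring (0.0426) or quantile normalisation of the arrays (0.0364), array weights (0.00085) and date as a random block (0.0197) did so too. So did leaving out PT replicate 1, 5, 6 or 10 or LungMets replicate 6 (from 0.0201 to 0.0499). With any other single array left out it was not called. It was not called with only PT and NMG in the fit or without moderated variances, and the less bright probe set of the gene, 1417634_at, was called higher in PT (1.37, adjusted p = 0.00261, above NMG in 11 of 11). By that probe set LungMets fell below PT by 0.85 (adjusted p = 0.0212). By the brighter probe set the difference from PT was -0.62 (adjusted p = 0.285, or 0.0166 with array weights) and that from NL -1.22 (adjusted p = 0.0711). The latter passed without LungMets replicate 4 or 8 or PT replicate 6 (adjusted p from 0.0458 to 0.0498), with array weights (0.00404), with date as a random block (0.0325) and with both groups alone in the fit (0.0455).

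Cat, the catalase of peroxisomes, which splits hydrogen peroxide into water and oxygen, was low in PT and intermediate in LungMets. PT held 8.52 to 10.67 with a median of 9.64, the highest being PT replicate 5, and LungMets 9.99 to 10.68 with a median of 10.36. NMG gave 11.03, 10.95 and 11.26, and NL 9.24, 11.13 and 11.39, where NL replicate 1 lay below every LungMets and the remaining NL above them all. PT was 2.73-fold lower than NMG (-1.45, SE 0.33, adjusted p = 0.000749, below in 11 of 11). By the other Cat probe set, 1416430_at, LungMets exceeded PT by 0.76 (limma adjusted p = 0.00356). By the brightest probe set they exceeded PT by 0.72 (SE 0.23, adjusted p = 0.0333). The latter difference was 0.56 and 0.82 within the date batches and 0.84 without the pair of arrays that stood apart. This call was lost (adjusted p from 0.0507 to 0.0656) without LungMets replicate 1, 4, 5, 6 or 7 or PT replicate 8 or 11. Against NL the difference was -0.24 (adjusted p = 0.586), and it was called without NL replicate 1 (-0.91, adjusted p = 0.0194) and with array weights (-0.69, adjusted p = 0.0130). Against NMG it was -0.73 (adjusted p = 0.083), and this passed without NL replicate 1 (adjusted p = 0.0262), with array weights (0.00961), with date as a random block (0.0388) and with only both groups in the fit (0.00377).

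Gpx1, the cytosolic selenium enzyme that reduces peroxides with glutathione, differed by less than 1 log2 unit between any groups. PT held 11.19 to 11.71 (median 11.61), LungMets 11.45 to 12.34 (median 11.82), NMG 12.01, 12.11 and 12.05, and NL 12.20, 12.01 and 11.83. PT lay below NMG in 11 of 11 samples (-0.50, SE 0.12, adjusted p = 0.00169), and LungMets above PT by 0.28 (SE 0.085, adjusted p = 0.0252; 0.29 and 0.28 within the date batches), above every PT in 7 of 9. Without LungMets replicate 7, the highest, the latter difference was 0.22 (adjusted p = 0.0554). LungMets were not called against NL (-0.18, adjusted p = 0.264) or NMG (-0.22, adjusted p = 0.177), although the latter passed without LungMets replicate 7 (-0.28, adjusted p = 0.0397) and with array weights (-0.23, adjusted p = 0.0157).

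Gpx3, the glutathione peroxidase secreted into plasma, showed the largest tissue differences among the members that were lower in PT. The values ran from 6.63 to 9.70 in PT with a median of 8.07, and from 7.86 to 11.19 in LungMets with a median of 10.02. NMG gave 9.91, 10.36 and 11.60 and NL 11.38, 11.17 and 11.52. The highest PT was PT replicate 5 and the lowest LungMets was LungMets replicate 9, and apart from that pair the tumors of both sites did not overlap. PT was 6.26-fold lower than NMG (-2.65, SE 0.50, adjusted p = 0.000118), with every PT below every NMG. LungMets were 3.87-fold higher than PT (1.95, SE 0.35, adjusted p = 0.000478), by 2.03 and 1.90 within the date batches and by 2.38 without the pair. LungMets were lower than NL (-1.43, SE 0.52, adjusted p = 0.0254, below in 8 of 9), a call lost without any NL replicate (adjusted p from 0.0534 to 0.0898), and not called against NMG (-0.69, adjusted p = 0.293).

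The cell type lists also differed between the groups, not all in the direction of the members. Over all genes, 47.7% were called in PT against NMG. In LungMets 15.2% were called against PT, 46.2% against NL and 41.0% against NMG. In PT against NMG all 9 adipocyte genes measured, among them Lpl and Fabp4, were lower (list mean 6.15 to 7.20 in PT, 11.28 to 12.00 in NMG), as were 7 of 10 endothelial genes (4.89 to 7.80 and 7.54 to 7.83), 5 of 8 smooth muscle genes and 4 of 9 luminal epithelial genes, with 3 of 10 macrophage genes lower and none higher. In LungMets against PT all 10 lung epithelium genes (6.67 to 11.20 in LungMets, 5.02 to 10.49 in PT) and 9 of 10 endothelial genes (6.58 to 9.06 in LungMets) were higher, with 1 of 10 macrophage and 2 of 8 smooth muscle genes, while the adipocyte list had 2 genes higher and 3 lower. In LungMets against NL all 10 endothelial genes (10.38 to 10.49 in NL), 8 of 9 adipocyte genes, 7 of 8 smooth muscle genes and 4 of 10 lung epithelium genes were lower, and 5 of 10 macrophage genes were higher. In LungMets against NMG all 9 adipocyte genes were lower and 8 of 10 lung epithelium genes higher. The endothelial list ranges overlapped, and 1 of 10 macrophage genes was higher and 4 lower, with 2 of 8 smooth muscle and 3 of 9 luminal genes lower. Of 5 erythrocyte genes, 1 was higher in each comparison except LungMets against NL, where 1 was lower. The part of these cell types in the differences of Cat, Gpx3 and the other members was not tested, and in whole tissue fewer cells of a type and less RNA per cell cannot be told apart.

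Nqo1 encodes a quinone reductase that is a classic target of NRF2, and by the brightest probe sets it was the member with higher RNA in tumors than in both normal tissues, as Txnrd1 was by other probe sets described below. PT gave 7.06 to 8.29 with a median of 7.57, LungMets 5.77 to 7.44 with a median of 6.76, NMG 4.75, 4.99 and 5.04, and NL 5.33, 5.08 and 5.33. All 20 tumor samples were above all 6 normal samples. PT was 6.38-fold higher than NMG (2.67, SE 0.28, adjusted p = 2.23e-08), LungMets 2.64-fold higher than NL (1.40, SE 0.28, adjusted p = 0.000251) and 3.29-fold higher than NMG (1.72, adjusted p = 3.21e-05). LungMets were 1.94-fold lower than PT (-0.96, SE 0.19, adjusted p = 0.0013), with 6 of 9 below every PT. That difference was -1.19 within the first date batch, where 4 of 4 LungMets were below every PT, -0.80 within the second and -1.11 without the pair that stood apart, of which LungMets replicate 9 had the highest Nqo1 of its group, 7.44, and PT replicate 5 the lowest of its own, 7.06.

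Hmox1, the inducible heme oxygenase that breaks down heme and frees iron, was lower in the tumors than in NMG. PT held 5.39 to 6.70 (median 6.25), LungMets 5.49 to 7.34 (median 6.41), NMG 7.63, 7.40 and 7.96, and NL 6.83, 6.72 and 6.79. Every tumor sample lay below every NMG. PT was 2.68-fold lower than NMG (-1.42, SE 0.26, adjusted p = 7.71e-05) and LungMets 2.35-fold lower (-1.23, SE 0.27, adjusted p = 0.00069). LungMets did not pass against PT (0.19, interval -0.18 to 0.57, adjusted p = 0.518; 0.38 and 0.07 within the date batches) or against NL (-0.34, interval -0.89 to 0.21, adjusted p = 0.307).

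Gclc, the catalytic subunit of the enzyme that starts glutathione synthesis, was high in NL and low in both NMG and PT. NL gave 9.76, 9.79 and 9.44, NMG 8.46, 8.28 and 8.52, PT 8.22 to 8.81 with a median of 8.52, and LungMets 8.02 to 9.36 with a median of 8.90. All LungMets were below all NL, and the lowest LungMets was replicate 9, below every PT. The difference between PT and NMG was 0.08 (interval -0.27 to 0.44, adjusted p = 0.717). LungMets were higher than PT by 0.37 (SE 0.12, adjusted p = 0.0349; 0.35 and 0.39 within the date batches, 0.51 without the pair that stood apart) and 1.73-fold lower than NL (-0.79, SE 0.18, adjusted p = 0.000682). By the other Gclc probe set, 1455959_s_at, LungMets exceeded PT by 0.40 (limma adjusted p = 0.0050). By the brightest probe set the call against PT depended on single arrays. It was lost without LungMets replicate 4, 7 or 8 or PT replicate 4, 7, 8 or 9 (adjusted p from 0.0521 to 0.0815). It was also lost with centred arrays (0.0567) or with only both groups in the fit (0.0550). LungMets were also called higher than NMG (0.46, SE 0.18, adjusted p = 0.0409), a call lost without LungMets replicate 4, 5, 6, 7 or 8 or any NMG replicate (adjusted p from 0.0517 to 0.161) or with only both groups in the fit (0.1002), and the other Gclc probe set gave 0.29 (adjusted p = 0.0991).

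Txnrd1 encodes the cytosolic selenoenzyme that keeps thioredoxin reduced, and its value depended on the probe set. By the probe set with the highest mean, 1421529_a_at, PT held 6.54 to 7.82 (median 7.37), LungMets 7.46 to 8.49 (median 7.91), NMG 8.96, 8.88 and 8.34, and NL 8.86, 8.74 and 8.73. PT was 2.77-fold lower than NMG (-1.47, SE 0.26, adjusted p = 3.97e-05) with no overlap. LungMets exceeded PT by 0.65 (SE 0.18, adjusted p = 0.014; 0.90 and 0.48 within the date batches) and were lower than NL by 0.88 (adjusted p = 0.00793), with 9 of 9 below every NL. The LungMets difference from NMG, -0.82 (adjusted p = 0.0139), was lost without NMG replicate 1 or 2 (adjusted p of 0.0833 and 0.0671).

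By 1424486_a_at the order was turned round. PT held 5.99 to 6.92 (median 6.42), LungMets 4.88 to 6.54 (median 5.65), NMG 4.18, 4.58 and 4.16, and NL 4.50, 4.18 and 3.57. All 20 tumor samples were above all 6 normal samples, the same layout as in Nqo1. PT was 4.34-fold higher than NMG (2.12, SE 0.24, adjusted p = 1.01e-07), LungMets 3.09-fold higher than NL (1.63, SE 0.25, adjusted p = 7.79e-06) and 2.65-fold higher than NMG (1.41, adjusted p = 6.91e-05), and LungMets 1.64-fold lower than PT (-0.71, SE 0.17, adjusted p = 0.00554; -0.45 and -0.89 within the date batches). The third probe set, 1424487_x_at, went the same way: PT was above NMG by 1.35 (adjusted p = 1.33e-09), LungMets above NL by 1.10 (adjusted p = 8.57e-08), and the step from PT to LungMets was -0.23 (adjusted p = 0.0554). Its NMG and NL values of 2.36 to 2.80 were below 2.85 to 3.31, the range of the array means of 2 Y-linked genes. This range was taken as a mark of low signal in these female mice. Single readings of these genes ran from 2.47 to 3.74 on the tissue arrays. The lowest tumor value of 1424487_x_at (3.35) and the lowest NL value of 1424486_a_at (3.57) were inside that wider range.

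**Figure D3:**
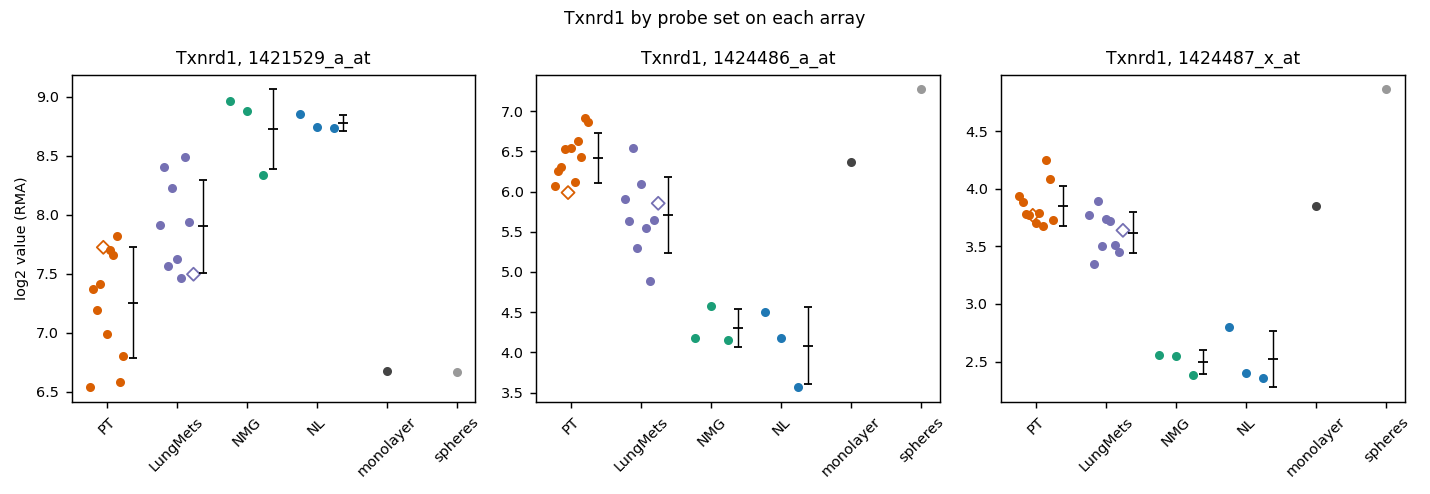
Log2 RMA value (y axis) of the 3 Txnrd1 probe sets on each array, by group (x axis), with group mean and SD as black bars; open diamonds are PT replicate 5 and LungMets replicate 9. PT lies below the normal tissues by 1421529_a_at and above them by 1424486_a_at and 1424487_x_at.

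The disagreement was tested within arrays, as the difference between the brightest probe set of a gene and each of its others, compared between groups by a two-sided exact permutation test with Benjamini-Hochberg adjustment over 48 tests (12 pairs of probe sets in 4 comparisons). The smallest p that the design allows is 0.00549 for 11 against 3 samples and 0.00909 for 9 against 3. For Txnrd1, 1421529_a_at exceeded 1424486_a_at by 0.83 ± 0.66 (SD, n = 11) in the primary tumors, 2.19 ± 0.80 (SD, n = 9) in LungMets, 4.42 ± 0.32 (SD, n = 3) in NMG and 4.69 ± 0.42 (SD, n = 3) in NL. The gap thus differed by -3.59 between PT and NMG (exact adjusted p = 0.023), by 1.36 between LungMets and PT (exact adjusted p = 0.0146) and by -2.50 between LungMets and NL (exact adjusted p = 0.023). All 4 Txnrd1 tests of this pair passed, and in all 4 comparisons limma called both probe sets in opposite directions, which no other gene showed. The 4 tests against 1424487_x_at passed as well, but its values in the normal tissues are at low signal. The mean of the 3 probe sets as the value of the gene turned the sign of its difference in all 4 comparisons, to 0.67 (adjusted p = 1.7e-05) in PT against NMG. Which transcripts each probe set reads is not stated in the annotation used here. By Affymetrix's naming, a suffix a marks probes common to several transcripts of a gene and a suffix x marks probes that may also match other genes.

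The other genes with several probe sets differed in size rather than sign among their called differences. Sod1 had 9 of 16 and Sod2 6 of 12 tests with unequal differences, and Sod3, Cat and Gclc 0 of 4 each, which adds up with Txnrd1 to 23 of 48, or 24 of 48 without the pair of arrays that stood apart. These counts include 2 probe sets with a group mean below the mark of low signal, 1447761_x_at of Sod1 and 1424487_x_at of Txnrd1. A probe set at low signal may not follow a change in full. Without both, a choice made after seeing the data, 15 of 40 tests passed, with 5 of 12 for Sod1, 6 of 12 for Sod2 and 4 of 4 for Txnrd1. For Sod1, the dim probe set 1440222_at gave -1.71 in PT against NMG (adjusted p = 1.00e-08) and -1.99 in LungMets against NL (adjusted p = 2.30e-09), larger than the brightest probe set, while 1435304_at was called in no comparison (0.32 in PT against NMG, adjusted p = 0.0989). The dimmest Sod1 probe set, 1447761_x_at, was read at 2.30 to 2.68 in the tumors, at or below the mark of low signal. For Sod2, 1417193_at was also lower in PT than in NMG (-0.48, adjusted p = 0.0341), while 1454976_at and 1417194_at differed by 0.10 and -0.07 (adjusted p of 0.766 and 0.703).

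Counted by probe set, 15 of the 22 were called in PT against NMG, where 46.1% of all probe sets were called. LungMets against PT called 12, over a background of 14.4%. LungMets against NL called 11 over 44.1%, and LungMets against NMG 10 over 39.0%, both near the share of all probe sets.

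**Figure D4:**
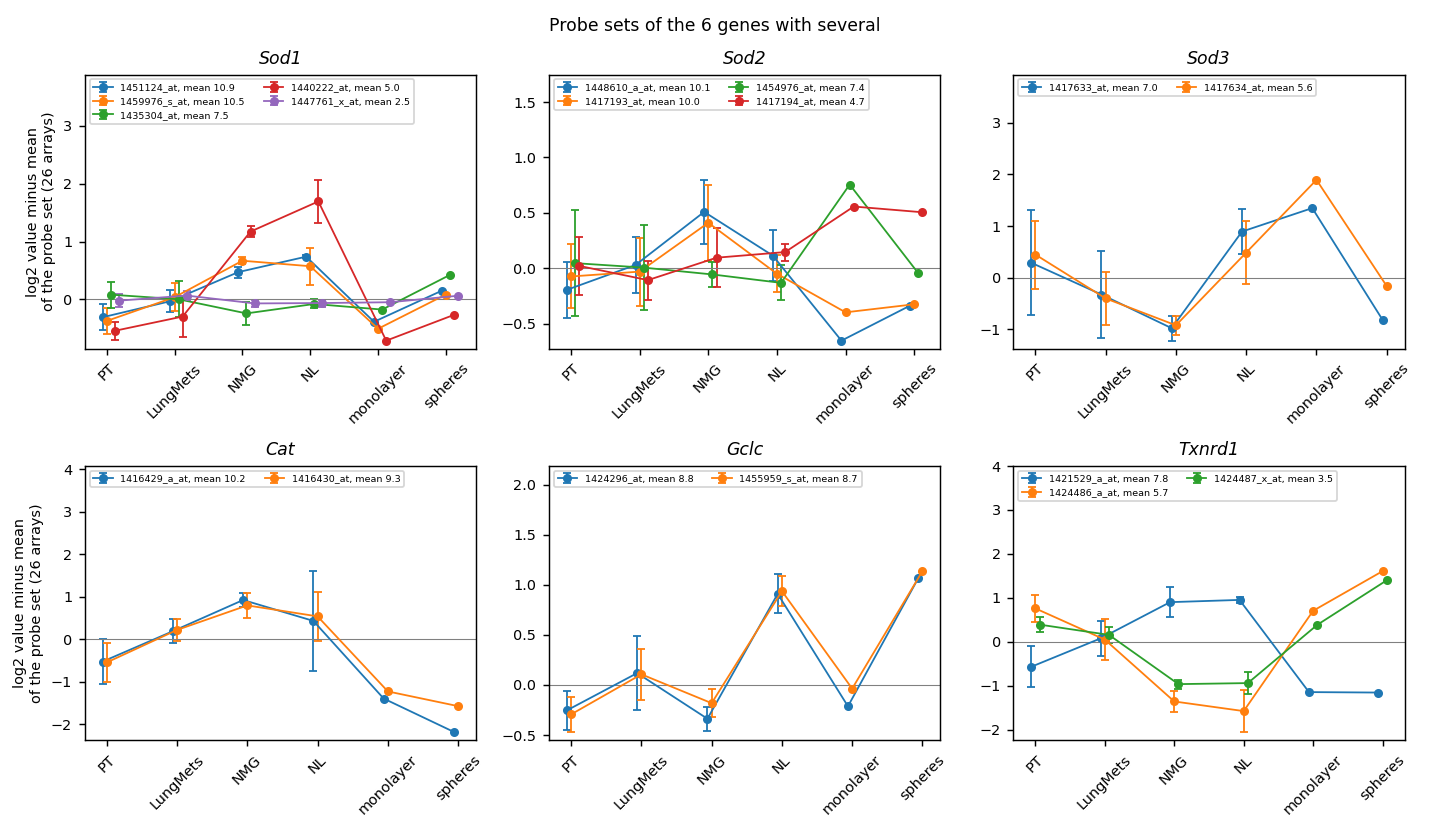
Mean log2 value of each probe set minus its own mean over the 26 tissue arrays (y axis) by group (x axis) for the 6 members with several probe sets; bars are SD, and the culture arrays are 1 array each. The Txnrd1 lines cross, and those of Cat, Gclc and Sod3 run together.

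The order of the group means summarises the genes by their brightest probe set. PT was lowest for 7 members (Sod1, Sod2, Cat, Gpx1, Gpx3, Hmox1 and Txnrd1) and highest for Nqo1, NL was highest for 5 and NMG for 4, and the LungMets mean lay between those of PT and NL for 9. No share over all genes stands beside these counts, so they are not read as particular to the members. The mean of the lung epithelium list was also intermediate in LungMets (10.37), between PT (5.96) and NL (12.26), and its part in the order was not tested. Many neighbours in that order overlapped in their samples. For Sod1, PT and LungMets overlapped while LungMets, NMG and NL were apart from each other, and for Nqo1, NMG, NL and LungMets were apart while LungMets and PT overlapped. For Sod2 and Hmox1 NMG alone, and for Gclc NL alone, stood clear of the neighbour in rank. For Cat, Gpx1, Gpx3, Sod3 and Txnrd1 each neighbour overlapped the next.

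Genes that work with these enzymes moved in both directions. Of 14 genes of the glutathione system, 3 were higher and 6 lower in PT than in NMG. The omega-class glutathione transferase Gsto1 was higher (1.49, adjusted p = 6.81e-07) and the mu-class Gstm2 lower (-2.99, adjusted p = 1.76e-06). In LungMets against PT, 4 were higher and 0 lower, led by Gstm2 (1.95, adjusted p = 0.000119) and Gstm1 (1.68, adjusted p = 0.000281). Against NL, 2 were higher and 5 lower, with Gsto1 at 0.86 and Gstm1 at -2.92, and against NMG 4 were higher and 2 lower, with the epithelial peroxidase Gpx2 at 2.92 and Gstm1 at -1.17. The median of the list was -0.17, 0.15, -0.35 and -0.18 in the comparisons in turn.

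Of 10 genes of the thioredoxin and peroxiredoxin system, 3 were higher and 4 lower in PT than in NMG, with Prdx4, a peroxiredoxin of the endoplasmic reticulum, at 0.97 and Txnip, the inhibitor of thioredoxin, at -1.99. LungMets had 2 higher and 1 lower than PT, with the glutaredoxin Glrx at 0.63 and Prdx4 at -0.50. Against NL, 4 were higher and 2 lower, with Prdx2 at 0.91 and Txnip at -2.09. Against NMG, 2 were higher and 3 lower, with thioredoxin Txn1 at 0.51 and Txnip at -1.58. The list medians stayed near those of all genes, at -0.17, 0.02, 0.23 and -0.08.

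Among 9 regulators of NRF2, Nfe2l2 itself was lower in PT than in NMG (-0.79, adjusted p = 0.00246), higher in LungMets than in PT (0.76, adjusted p = 0.00074) and lower in LungMets than in NL (-1.04, adjusted p = 0.000242). These signs were opposite to those of Nqo1. The Nfe2l2 difference in LungMets against NMG is not given here, and NRF2 protein was not measured. In PT against NMG 2 regulators were higher, led by the small MAF gene Mafg (0.44), and 3 lower. In LungMets against PT 2 were higher and 1 lower, Mafg at -0.24. Against NL 1 was higher, Cul3 of the ubiquitin ligase that degrades NRF2 (0.56), and 6 lower, and against NMG 3 were higher, led by Maff (0.75), and 2 lower, led by Rbx1 of the same ligase (-0.52). The list medians were 0.01, 0.03, -0.41 and 0.20.

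NADPH is the electron donor for glutathione and thioredoxin reductases and for NQO1, and 7 genes of its supply were measured. Against NMG, 5 of the 7 were lower and 0 higher in PT (median -1.61) and likewise in LungMets (median -1.41). Malic enzyme Me1 stood at -2.58 (adjusted p = 7.25e-11) and -3.12 (adjusted p = 4.39e-12), transketolase Tkt at -2.57 and -2.55, and the list mean was 10.93 to 11.19 in NMG and 9.45 to 9.91 in PT. Several of these genes also serve fat synthesis, and the adipocyte list fell in the same comparisons as given above. In LungMets against NL 8 of 9 adipocyte genes were lower too, where the median of the NADPH list was -0.37. The part of fat cells in these values was not tested. LungMets had 1 higher than PT, Idh1 (0.42, adjusted p = 0.049), and 1 lower, Me1 (-0.53, adjusted p = 0.00746), and against NL 1 higher, Pgd (0.76), and 3 lower, led by Tkt (-0.76).

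Of 9 genes that handle iron and heme, 4 were higher and 4 lower in PT than in NMG. The transferrin receptor Tfrc was higher (3.29, adjusted p = 1.07e-06) and the iron exporter Slc40a1 lower (-1.99, adjusted p = 1.13e-08). LungMets also had 4 higher and 4 lower than NMG, with Tfrc at 3.06 and Slc40a1 at -1.72, and 3 higher and 2 lower than NL, with metallothionein Mt2 at 3.77 and ferritin heavy chain Fth1 at -0.51. Against PT the constitutive heme oxygenase Hmox2 was the 1 gene called (0.24, adjusted p = 0.0452).

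Of 7 sources of oxidants, 1 was higher in PT than in NMG, the NADPH oxidase Nox4 (1.40, adjusted p = 0.00451), and 5 lower, led by Ncf1 of the phagocyte oxidase (-1.82, adjusted p = 0.000102). LungMets had 2 higher than PT, the phagocyte oxidase subunit Cybb (1.33, adjusted p = 0.00189) and xanthine dehydrogenase Xdh (1.28, adjusted p = 0.00382), and 0 lower. Against NL, 2 were lower, Nox4 (-1.81) and Xdh (-1.10), and against NMG Nox4 was higher (2.10) and 3 were lower, led by Ncf1 (-1.19). The list medians were -1.19, 0.63, -0.22 and -0.40. The mean of the macrophage list ranged over 6.85 to 7.91 (PT), 7.69 to 8.74 (LungMets), 8.01 to 8.70 (NMG) and 7.33 to 7.72 (NL), and its part in these values was not tested.

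**Figure D5:**
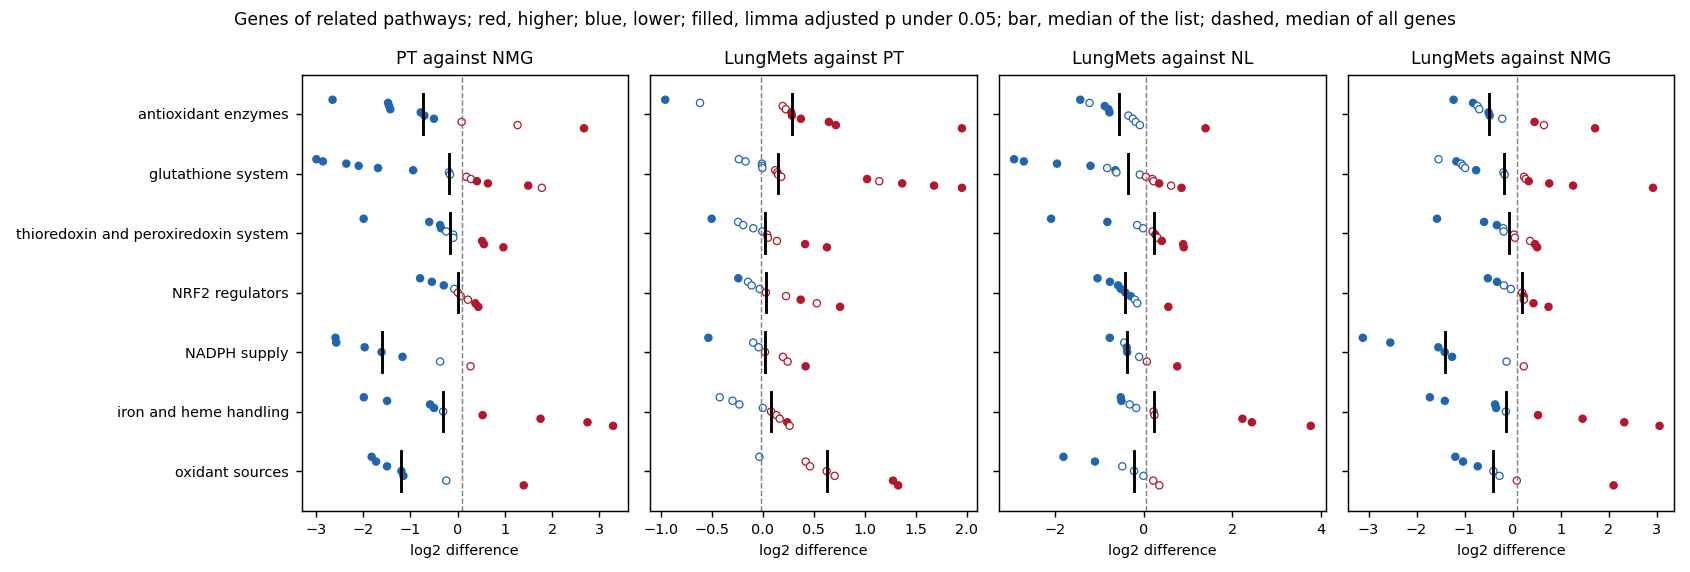
Log2 difference (x axis) of each gene of the antioxidant enzymes and of 6 related lists (y axis) in the 4 comparisons; red is higher and blue lower in the group named first, filled points passed limma's adjusted p of 0.05, black bars are list medians and the dashed line is the median of all genes. In PT against NMG the medians were -1.61 for NADPH supply, -1.19 for oxidant sources and -0.74 for the antioxidant enzymes.

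The genes most like each member over the 26 tissue arrays were found by the root mean square difference of profiles centred on their own means, in log2 units, where a smaller value is closer. For Gpx3, whose own SD over the arrays was 1.46, they were Unc45b (0.41) and the caveolin gene Cav1 (0.45), the latter with group means of 8.35 (PT), 10.64 (LungMets), 11.59 (NMG) and 12.58 (NL). For Cat (own SD 0.70) they were the peroxisomal sterol carrier Scp2 (0.28) and Hipk3 (0.33). For Nqo1 (own SD 1.06) they were Trim47 (0.36) and Spata5l1 (0.38), and for Txnrd1 by its brightest probe set (own SD 0.69) Akr1a1 (0.22), an aldehyde reductase, and Prr13 (0.24). The others were Kcns3 (0.18) and Pou6f1 (0.19) for Sod1, Itpk1 (0.17) and Rnf130 (0.18) for Sod2, Nuak1 (0.41) and Ccn4 (0.47) for Sod3, Nfam1 (0.12) and Zfp583 (0.15) for Gpx1, 2410022M11Rik (0.29) and Lias (0.32) for Hmox1, and Dag1 and Ccdc181 (both 0.20) for Gclc. These are descriptions over arrays that share groups and date batches.

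Finally, the cultured JygMC(A) cells showed levels of the same genes without host tissue, from 1 array each and therefore with no test. They were the only samples extracted with a column kit rather than TRIzol, and their lists of adipocyte (4.98 and 4.98), endothelial (4.60 and 4.64) and macrophage genes (4.34 and 4.41 in monolayer and spheres) were below those of every tissue sample. So was the luminal epithelial list (5.47 and 5.12). The lung epithelium (5.35 and 5.54) and erythrocyte lists (5.10 and 4.98) lay inside the PT range. The smooth muscle list did so in the monolayer (6.36) and lay below every tissue sample in spheres (5.02). Hmox1 was 8.52 in the monolayer and 9.64 in spheres, above all 20 tumors and all 6 normal samples. Gpx3 was 4.80 and 5.89, below every tumor and normal sample, and Cat was 8.76 and 7.98, below all normal samples and below 19 and 20 of the 20 tumors. Nqo1 was 7.98 and 6.82, inside the range of the tumors and above all normal samples. Sod3 differed most between the culture forms, at 8.35 in the monolayer and 6.18 in spheres (-2.16), while Gclc was 8.54 and 9.82 (1.28) and Txnrd1 by 1424486_a_at 6.37 and 7.27 (0.90). The Txnrd1 probe sets split in culture as they did in PT, with 1421529_a_at at 6.68 and 6.67, below all normal samples, and 1424486_a_at above all of them. In spheres against monolayer 8 of the 22 member probe sets, or 36.4%, differed by more than 2-fold, and 7.15% of all probe sets did. With 1 array per form, this difference has no replicate check.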

How the data were processed

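Total RNA was hybridised to Affymetrix 3' expression arrays. The authors made the values from the scanner files with RMA in Partek 6.6 and deposited 1 log2 value per probe set and array. RMA corrects background on each array and fits quantiles over all arrays together. It compresses dim signals, and the number of arrays limits the precision. Of 45101 probe sets, 34958 had 1 symbol in the platform annotation, 932 several and 9211 none. After 13 control probe sets were dropped, 34945 were used, and the gene value was taken from its brightest probe set, by the mean of the 26 tissue arrays. A symbol's gene ID was found in RefSeq for 34741 probe sets and changed no name.

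The deposited log2 values were fitted with limma 3.58.1 in R 4.3.3 (1 mean per group, moderated variances, Benjamini-Hochberg over all 18193 genes or all probe sets, called at adjusted p under 0.05). A fold is 2 raised to the log2 difference. Permutation tests used scipy 1.17.1 in Python 3.11.15, tables pandas 2.3.3 and plots matplotlib 3.10.9. The steps were tested on simulated data. Members and gene lists were chosen with earlier results of these data known. The genes named were all members, from each pathway list at most 2 called genes with the largest difference per comparison (1 in each direction where both exist), at most 2 genes per marker list by mean, and the 2 most similar genes per member. Members of the lists that no probe set with 1 symbol reads, such as Prdx1 and G6pdx, were not analysed here. Alternatives covered the joining of probe sets, a filter on dim genes, normalisation, array weights, variance moderation, a fold threshold, date and replicate blocks, and left-out arrays.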

Additional observations from a re-analysis of the deposited data

Results flagged for a closer look

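Gclc in LungMets replicate 9 was 8.02, far below the other 8 LungMets: the gap to the nearest was 0.579 of the range of the group, above Dixon's 95% critical value. It was the 1 gene of 10 tested in this way in LungMets that stood out, and chance alone flags about 1 in 20 groups. This array is the one whose lung epithelium list lay at 6.67.

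The culture arrays entered no comparison between groups. On them, Nqo1 was at least 6.82, which is 1.49 above the highest normal tissue sample, and Hmox1 was at least 8.52, which is 0.56 above the highest normal sample. Each form was measured on 1 array and extracted with another kit than the tissues, and neither difference was tested.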

How the results depend on the processing

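Comparisons are given in this order: PT against NMG, then LungMets against PT, against NL and against NMG. With 1 array left out, the members called ranged from 8 to 9, 3 to 7, 4 to 6 and 4 to 7, the probe sets from 14 to 16, 8 to 13, 9 to 12 and 8 to 11, and all genes from 6762 to 8912, 1996 to 3206, 6754 to 8618 and 5352 to 7724. In LungMets against PT, 4 members were called without LungMets replicate 4 or PT replicate 8 and 3 without LungMets replicate 7. With a fold change over 2 also required, the members called were 5, 1, 2 and 2, all genes 3137, 564, 2961 and 2422, and the probe sets in the last 3 comparisons 1, 5 and 5. Date batch 1 alone called 4 members, 4 probe sets and 1392 genes in LungMets against PT, and date batch 2 alone 0, 0 and 0 by limma, with 4 members and 2669 genes at unadjusted p under 0.05. With only the 9096 genes above the median level tested, 5341, 5299 and 4261 were called in the comparisons other than LungMets against PT. These are larger shares of a smaller set than in the main fit. In LungMets against PT, array weights called 4156 of 18193 genes. With date as a fixed block LungMets against PT called 7 members, and the share of all genes in that fit is not given here (15.2% in the main fit). Tests of unequal probe sets passed in 15 cases in place of 23 without the probe sets at low signal.

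Signs turned with the mean of a gene's probe sets for Gclc in PT against NMG (-0.014) and for Txnrd1 in the 4 comparisons (0.67, -0.10, 0.62 and 0.57), with array weights for Sod2 in LungMets against NL (0.064), and in that comparison with 1 NL replicate left out for Sod2 (from -0.21 to 0.016) and Cat (from -0.91 to 0.16, above 0 without replicate 2, at 0.030, or 3). The cause was not tested, except that the mean of Txnrd1 joins probe sets of opposite sign. Of 1500 values of single members under all settings, 1390 kept their direction and side of the threshold.

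Deviations of same-numbered PT and LungMets correlated from -0.23 to 0.48, over 0.1 in 7 of 9 pairs, and those between any other groups over 0.1 in 0 of 3 pairs. Same-numbered PT and LungMets also share a date batch, so a shared mouse and a shared date cannot be told apart. The numbers were to be taken as a pairing only if every pair passed, a rule chosen here. The main fit was therefore unpaired, and whether these samples are paired was not settled. The fit with a replicate block joined same-numbered samples of all tissue groups. NMG and NL came from uninjected mice, so in comparisons with them this block matches numbers and not animals. With the replicate block the members called were 9, 7, 6 and 5. The main fit called 47.7%, 15.2%, 46.2% and 41.0% of all genes, and the shares under this block are not given here. Sod3 was called in the first 3 comparisons (adjusted p of 0.0147, 0.0431 and 0.000399). Cat in LungMets against PT (0.0693) and Gclc in LungMets against NMG (0.0681) were not called.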
